A study of Mus musculus with 23 samples.

Results

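The data set was examined for 8 genes, most of them regulators of red cell development, through normal thymus and the spleens of mice with T-cell acute lymphoblastic leukemia (T-ALL). They are the transcription factors Gata1, Klf1, Gfi1b and Nfe2, the cofactor Zfpm1, the erythropoietin receptor gene Epor, the transferrin receptor gene Tfrc and the Bcl2 relative Bcl2l15. They were chosen by name, and each has 1 row in the expression table, so the set is 8 of 24475 genes. In red cell development the zinc finger protein GATA1 acts with its partner FOG1, the product of Zfpm1, and drives the genes of the erythroid program together with KLF1 and NFE2. Erythropoietin, acting through its receptor and the kinase JAK2, keeps the precursors alive, and the transferrin receptor supplies the iron for their heme. In the mouse, the spleen makes red cells throughout life and does so more under anemia or marrow failure, while the thymus makes T cells.

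RNA sequencing covered 23 mouse samples. The controls were 6 thymus samples of normal C57BL/6 mice. The tumors were unfractionated spleens of BALB/c Rag2-/-Il2rg-/- mice, which lack T, B and NK cells of their own, and which had received a newborn thymus lobe under the kidney capsule and developed T-ALL. The donor thymus was wild type in 14 (WT T-ALL; by the study's methods from B6.Ly5.1 mice) and Notch3 knockout in 3 (Notch3 KO T-ALL). Ages at collection are not given in the sources used here, and no label names a treatment. The host keeps its own erythroid, myeloid and stromal cells, so tissue, host strain and disease change together between thymus and tumor and cannot be told apart. In such bulk samples, fewer cells of a type and less RNA per cell cannot be told apart either. The Notch3 knockout was made by an insertion in the coding sequence, so the level of Notch3 does not check the genotype. The knockout tumors had a Notch3 level of 2.59 to 3.74, the WT T-ALL samples 3.17 to 5.78 and the thymus controls 2.62 to 4.29. Here and below, a level is log2(scaled RPKM + 1), in which RPKM (reads divided by transcript length and by library size) had been scaled by the authors to the same 75th percentile in every sample. The added 1 makes differences smaller than the true fold change where a level is low.

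Whole libraries differed in ways that bear on these genes. Step sizes in the low scaled values gave an estimate of relative depth, with 1 read worth between 0.617 and 3.62 times its worth in thymus control 1. By this estimate WT T-ALL 48 (0.617) and 36 (0.635) were deepest, and thymus control 6 (3.62) and WT T-ALL 4 (3.58) shallowest. For WT T-ALL 48 and thymus control 6 the estimates from 20 of the 23 libraries agreed, the fewest of all. The gene Sco2 split the libraries into those with a high and those with a low level, at a log2 level of 1.5. The high set held 2 thymus, 4 WT T-ALL (libraries 3, 4, 5 and 7) and all 3 Notch3 KO T-ALL samples, and the low set held the other 4 thymus and 10 WT T-ALL. The labels name no batch, so values are also given within the high Sco2 set. Genes that mark T cells were abundant in every sample, with a scaled RPKM over the list that came to 2433 to 2744 in Notch3 KO T-ALL, 1590 to 3678 in WT T-ALL but 4347 to 5843 in the controls. Markers of mature erythroid cells, 9 genes such as Alas2 and Slc4a1, summed to 395 to 2143 in Notch3 KO T-ALL and 38.1 to 772 in WT T-ALL, but to 0.326 to 2.47 in the thymus controls. In thymus 6 of these 9, including Rhag, were under a scaled RPKM of 0.1 in all libraries. Of all scaled RPKM, hemoglobin genes took 4.05% to 15.5% in Notch3 KO T-ALL and 0.0874% to 5.92% in WT T-ALL, against 0.0093% to 0.118% in the controls.

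The upstream sequences of 5 of the genes are shown because Gata1, Klf1, Epor and Gfi1b rose and fell together across the tumors while Bcl2l15 followed them less closely. Each line gives the 250 bases before a transcription start in RefSeq, on assembly GRCm38.p6, 5′ to 3′ along the gene. Capitals mark the letters AGATAA or TGATAA, the core bound by GATA factors, and CCACCC, the letters searched for KLF1, on either strand. Other forms of KLF1 sites were not searched, so a window without CCACCC is not shown to lack a KLF1 site.
Gata1, chrX:7967911-7968160, minus strand: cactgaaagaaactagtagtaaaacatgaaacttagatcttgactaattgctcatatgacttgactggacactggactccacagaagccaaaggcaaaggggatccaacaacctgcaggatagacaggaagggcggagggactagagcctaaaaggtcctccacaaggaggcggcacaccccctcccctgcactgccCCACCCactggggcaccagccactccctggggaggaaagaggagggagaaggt
Klf1, chr8:84901732-84901981, plus strand: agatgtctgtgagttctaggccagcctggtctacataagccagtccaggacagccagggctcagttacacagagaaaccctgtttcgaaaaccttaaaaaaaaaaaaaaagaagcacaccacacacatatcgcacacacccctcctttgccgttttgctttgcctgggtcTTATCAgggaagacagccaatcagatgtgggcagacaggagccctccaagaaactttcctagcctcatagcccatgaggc
Epor, chr9:21963577-21963826, minus strand: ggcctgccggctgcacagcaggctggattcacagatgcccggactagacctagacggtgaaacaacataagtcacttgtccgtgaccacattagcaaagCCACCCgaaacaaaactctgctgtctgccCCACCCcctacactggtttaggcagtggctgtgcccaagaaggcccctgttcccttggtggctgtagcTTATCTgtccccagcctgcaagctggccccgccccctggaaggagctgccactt
Gfi1b, chr2:28621983-28622232, minus strand: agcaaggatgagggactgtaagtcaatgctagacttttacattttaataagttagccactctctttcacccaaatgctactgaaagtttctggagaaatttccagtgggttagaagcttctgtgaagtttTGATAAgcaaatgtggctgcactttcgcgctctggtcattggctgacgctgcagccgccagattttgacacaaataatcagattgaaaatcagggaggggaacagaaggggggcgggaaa
Bcl2l15, chr3:103832446-103832695, plus strand: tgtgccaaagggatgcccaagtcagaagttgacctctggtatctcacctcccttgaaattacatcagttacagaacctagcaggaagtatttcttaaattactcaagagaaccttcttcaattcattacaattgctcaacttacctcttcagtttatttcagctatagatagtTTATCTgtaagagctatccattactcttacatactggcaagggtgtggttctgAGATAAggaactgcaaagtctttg

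The GATA letters lie at -80 in Klf1, -54 in Epor, -120 in Gfi1b and at -77 and -24 in Bcl2l15, counted from the start site. No such letters were found in this window of Gata1, Zfpm1 or either listed start of Tfrc. Of all 32851 promoters of the same table, 16.6% hold them. The CCACCC letters lie at -53 in Gata1, at -151 and -122 in Epor, at -243 and -107 in Zfpm1 and at 3 places before the second start of Tfrc, and 28.1% of all promoters hold them. The letters TGAGTCA, at the core of NFE2 sites, were in none of the 7 genes with an entry and in 4.46% of all promoters. CAGATG, an E-box of the kind bound by TAL1, was found at -59 in Klf1 and -219 in Epor, against 14.4% of all promoters. No match of 1 motif overlapped a match of another in these windows. The matches are letters in a window, and binding was not measured.

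All 8 genes were higher in WT T-ALL than in thymus, and all 8 were higher in Notch3 KO T-ALL than in thymus. For Klf1, which switches on the adult beta-globin gene and red cell membrane genes, the gain was the largest of the 8 in both comparisons. The thymus samples had almost no Klf1, Epor or Gfi1b RNA, while Tfrc and Zfpm1 were well expressed there. Of 11919 genes tested, 29.3% were called higher in WT T-ALL and 21.2% in Notch3 KO T-ALL at an adjusted p under 0.05 (limma, Benjamini-Hochberg over all genes). A complete separation of the groups with the tumor group higher, the same 6 controls serving both comparisons, was found for 8.42% of genes in WT T-ALL and 23.9% in Notch3 KO T-ALL. Of the 8 genes, 7 separated in WT T-ALL and 8 in Notch3 KO T-ALL. Gata1, Klf1, Epor, Gfi1b and Bcl2l15 were under a scaled RPKM of 1 in every thymus library, so these 5 of 8 entered the test only through the tumors. The median log2 difference of the 8 was 2.23 for WT T-ALL and 3.93 for Notch3 KO T-ALL, against 0.08 for all tested genes in either comparison.

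**Figure D1:**
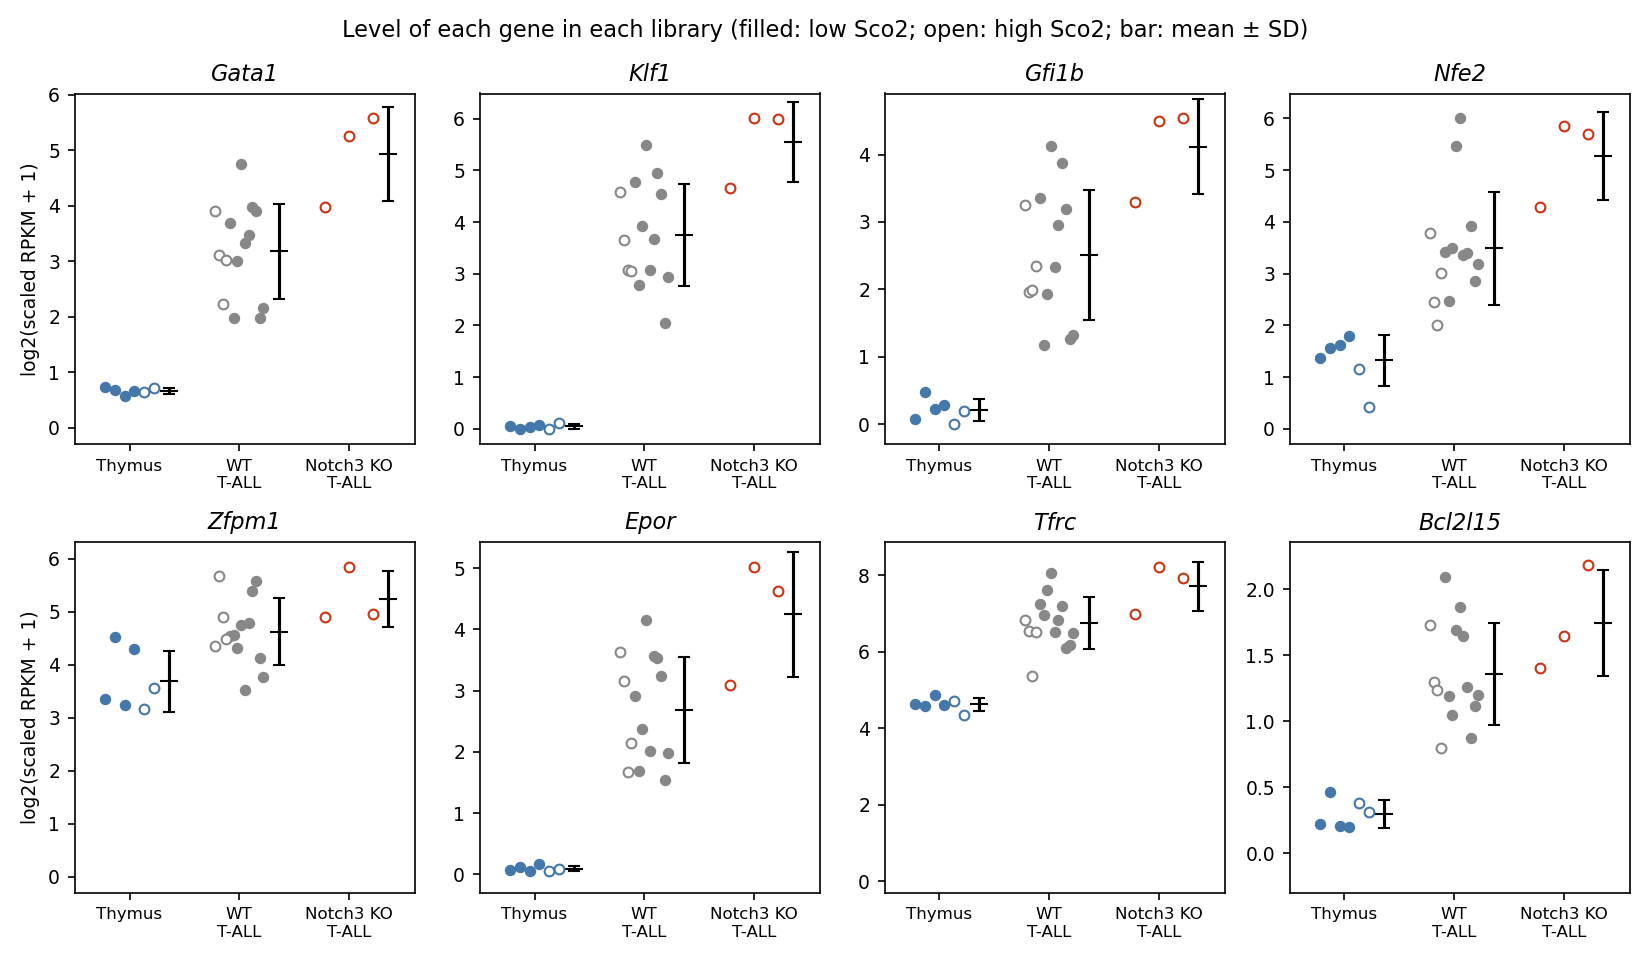
Level of each gene, as log2(scaled RPKM + 1), in every library of the 3 groups; open points are libraries with a high level of Sco2, and bars show mean ± SD (n = 6, 14 and 3). Thymus lies apart from both tumor groups for every gene but Zfpm1, where 8 of the 14 WT T-ALL points are above all thymus points.

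Gata1 (gene 14460, chromosome X, 7959260 to 7976663) encodes the lead factor of erythroid, megakaryocyte, mast cell and eosinophil development. Its level in thymus ran from 0.58 over a median of 0.67 to 0.73. In WT T-ALL it ran from 1.98 over 3.22 to 4.75. The 3 Notch3 KO T-ALL samples gave 3.98, 5.25 and 5.58. No tumor overlapped with a thymus control, and the thymus range was narrower than that of either tumor group. WT T-ALL was higher by 2.51 (SE 0.34, limma adjusted p = 2.49e-06) and Notch3 KO T-ALL by 4.27 (SE 0.49, adjusted p = 8.94e-07). The thymus value is low but rests on 10 to 38 reads per library, as recovered from the step sizes.

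Klf1 (gene 16596, chromosome 8, 84901982 to 84905291) was close to nil in thymus, with a level from 0.00 over 0.05 to 0.11, which is 0 to 2 reads per library and 6 reads in all. In WT T-ALL its level ran from 2.06 over 3.66 to 5.48. The Notch3 KO T-ALL samples gave 4.65, 6.01 and 6.00. Every tumor was above every thymus control. The difference from thymus was 3.71 in WT T-ALL (SE 0.38, limma adjusted p = 6.99e-08) and 5.51 in Notch3 KO T-ALL (SE 0.55, adjusted p = 1.53e-07), and both are understated by the added 1.

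Gfi1b (gene 14582, chromosome 2, 28609450 to 28621982), a repressor needed for red cells and platelets, had a level in thymus from 0.00 over 0.20 to 0.47. In WT T-ALL the level ran from 1.18 over 2.34 to 4.13. The Notch3 KO T-ALL samples gave 3.30, 4.51 and 4.54. Each tumor was above each thymus control. WT T-ALL was higher by 2.30 (SE 0.37, limma adjusted p = 2.51e-05) and Notch3 KO T-ALL by 3.91 (SE 0.54, adjusted p = 9.38e-06).

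Nfe2 (gene 18022, chromosome 15, 103248212 to 103258403) encodes the blood-specific subunit of the factor NF-E2, which acts in erythroid cells and in platelet release. It was present in thymus, from 0.41 over 1.47 to 1.79, with its lowest value in control 6. Its range in WT T-ALL was 2.00 over 3.39 to 6.00, and Notch3 KO T-ALL gave 4.29, 5.84 and 5.69. The lowest tumor, WT T-ALL 5, was only just above the highest thymus control. WT T-ALL was higher by 2.17 (SE 0.44, limma adjusted p = 0.000297) and Notch3 KO T-ALL by 3.95 (SE 0.63, adjusted p = 5.72e-05).

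Zfpm1 (gene 22761, chromosome 8, 122281856 to 122337862) encodes FOG1, which binds GATA factors, GATA3 of T cells included. It was the transcription gene of the set with the highest level in thymus, from 3.17 over 3.46 to 4.52. In WT T-ALL it ran from 3.52 over 4.55 to 5.67, and 8 of 14 libraries were above all thymus controls. The Notch3 KO T-ALL samples gave 4.90, 5.85 and 4.96, all above thymus. The difference was 0.94 in WT T-ALL (SE 0.28, limma adjusted p = 0.00697) and 1.55 in Notch3 KO T-ALL (SE 0.40, adjusted p = 0.0042). Within the low Sco2 set the WT T-ALL difference was 0.69 (adjusted p = 0.12), and within the high set it was 1.49 (adjusted p = 0.0327).

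Epor (gene 13857, chromosome 9, 21958897 to 21963576) had a level in thymus from 0.06 over 0.08 to 0.16, which is 1 to 6 reads per library. The WT T-ALL samples ran from 1.54 over 2.65 to 4.16, and the 3 knockout tumors gave 3.09, 5.02 and 4.62. Thymus did not overlap with either tumor group. WT T-ALL was higher by 2.59 (SE 0.35, limma adjusted p = 3.07e-06) and Notch3 KO T-ALL by 4.15 (SE 0.51, adjusted p = 2.29e-06).

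Tfrc (gene 22042, chromosome 16, 32608896 to 32632794) encodes the receptor by which cells take up iron bound to transferrin, and dividing cells of many kinds carry it. It was the most abundant of the 8 in every library, with a thymus level from 4.36 over 4.62 to 4.87. WT T-ALL had levels from 5.37 over 6.68 to 8.07. Levels in Notch3 KO T-ALL were 6.99, 8.22 and 7.94. No tumor was within the thymus range. WT T-ALL was higher by 2.12 (SE 0.27, limma adjusted p = 1.16e-06) and Notch3 KO T-ALL by 3.09 (SE 0.39, adjusted p = 3.05e-06).

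Bcl2l15 (gene 229672, chromosome 3, 103831036 to 103854618), a little studied relative of Bcl2, was low throughout. Its level in thymus ran from 0.20 over 0.27 to 0.46. In WT T-ALL it ran from 0.80 over 1.24 to 2.09, and the Notch3 KO T-ALL samples gave 1.40, 1.64 and 2.18. The thymus range lay below all tumors. WT T-ALL was higher by 1.06 (SE 0.17, limma adjusted p = 3.07e-05) and Notch3 KO T-ALL by 1.45 (SE 0.25, adjusted p = 0.000137). In the 4 WT T-ALL and 2 thymus samples of the high Sco2 set the difference was 0.91 (adjusted p = 0.095).

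Two-sided exact permutation tests over samples gave p = 5.16e-05, the smallest they can give for 14 against 6, for the 7 genes other than Zfpm1, and 0.00521 for Zfpm1. For Notch3 KO T-ALL against thymus they gave 0.0238, the smallest possible for 3 against 6, for each gene. The erythroid marker score, the mean log2 level of the 9 markers, was 4.93 to 7.21 in Notch3 KO T-ALL, 2.23 to 5.93 in WT T-ALL but 0.05 to 0.24 in the controls. With that score as a covariate the WT T-ALL differences became 0.56 for Gata1, 1.39 for Klf1, 0.41 for Gfi1b, -0.30 for Nfe2, 0.79 for Zfpm1, 0.39 for Epor, 0.14 for Tfrc and 0.49 for Bcl2l15, and none was called (smallest adjusted p = 0.187, for Klf1). The Notch3 KO T-ALL differences became 1.24, 1.91, 0.97, 0.13, 1.32, 0.73, 0.01 and 0.56 in the same order, and none was called (smallest adjusted p = 0.402). Since the score does not overlap between thymus and tumors, it and the group cannot be told apart in this fit.

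The order of the 8 genes by level per transcript length changed between thymus and tumors. In thymus the median scaled RPKM was 23.7 for Tfrc, 10.01 for Zfpm1 and 1.78 for Nfe2, and it was 0.592 or less for the other 5. In WT T-ALL it was 102 for Tfrc, 22.4 for Zfpm1, 11.7 for Klf1, 9.45 for Nfe2, 8.36 for Gata1, 5.38 for Epor, 4.06 for Gfi1b and 1.37 for Bcl2l15. Klf1 thus stood last in thymus, while in WT T-ALL only Tfrc and Zfpm1 were above it. The neighbours Nfe2 and Gata1 did not differ beyond their spread in WT T-ALL, where Nfe2 was the higher in 7 of 14 libraries, and Epor was above Gfi1b in 9 of 14. In Notch3 KO T-ALL the order was Tfrc at 245, Klf1 at 63.0, Nfe2 at 50.6, Gata1 at 37.1, Zfpm1 at 30.1, Epor at 23.6, Gfi1b at 21.7 and Bcl2l15 at 2.12, and Klf1 was above Nfe2 in 3 of 3 libraries. Gata1 was above Zfpm1 in only 1 of 3, and by the mean Zfpm1 was the higher (38.5 against 32.9), so these neighbours have no clear order, and Epor was above Gfi1b in 2 of 3.

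The list of partner genes of the erythroid factors held 24 tested genes, among them partners of GATA1, relatives of the factors and components of their repressor complexes, and 7 were called higher and 8 lower in WT T-ALL, 6 and 4 in Notch3 KO T-ALL. Over all genes 22.3% were called lower in WT T-ALL and 16.3% in Notch3 KO T-ALL, beside the 29.3% and 21.2% called higher, and the list was near these shares apart from more lower genes in WT T-ALL. In WT T-ALL the largest changes were in Lmo2 (3.28, limma adjusted p = 4.01e-08) and Tal1 (3.09, adjusted p = 4.83e-07), which bridge and bind DNA in the complex with GATA1, and in the related Lyl1 (1.62, adjusted p = 0.000437). The study had examined these 3 in the same samples, so they are no independent choice. In Notch3 KO T-ALL they were Tal1 (5.03, adjusted p = 2.82e-07), Lmo2 (4.74, adjusted p = 1.29e-07) and Sox6 (2.84, adjusted p = 2e-05), a factor of late erythroid cells. The list's median difference was -0.205 in WT T-ALL and -0.15 in Notch3 KO T-ALL.

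Of 16 tested genes that act with or downstream of the erythropoietin receptor, 2 were called higher and 4 lower in WT T-ALL, and 2 and 3 in Notch3 KO T-ALL. The shares called lower were near those of all genes (22.3% and 16.3%), and the shares called higher were below them (29.3% and 21.2%). Socs1, a brake on JAK kinases, fell by 2.39 in WT T-ALL (limma adjusted p = 5.61e-06) and by 3.19 in Notch3 KO T-ALL (adjusted p = 3.67e-05). The survival gene Bcl2l1, which is high in thymocytes as well as in erythroblasts, fell by 2.06 (adjusted p = 2.63e-06) and by 1.26 (adjusted p = 0.017). The kinase gene Lyn rose by 1.34 (adjusted p = 0.0179) and 1.88 (adjusted p = 0.0291).

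Of 20 iron handling genes tested beside Tfrc, 11 were called higher and 1 lower in WT T-ALL, and 13 and 1 in Notch3 KO T-ALL, with median differences of 0.455 and 1.20 against 0.08 for all genes. The shares called higher were above those of all genes (29.3% and 21.2%), and the shares called lower were below them (22.3% and 16.3%). Steap3, which reduces the iron that Tfrc brings in, rose by 2.25 in WT T-ALL (limma adjusted p = 1.07e-06) and 3.47 in Notch3 KO T-ALL (adjusted p = 1.41e-06). The iron exporter Slc40a1, typical of macrophages, rose by 2.12 (adjusted p = 0.00047) and 3.22 (adjusted p = 0.000558). Trf, the transferrin gene, rose by 3.04 in WT T-ALL (adjusted p = 3.92e-05), and the mitochondrial transporter gene Abcb10 by 3.22 in Notch3 KO T-ALL (adjusted p = 1.05e-05). Among 15 Bcl2 relatives of Bcl2l15, 3 were higher and 5 lower in WT T-ALL, and 3 and 4 in Notch3 KO T-ALL, a share higher that was near or below that of all genes and a share lower that was above it. Bcl2 fell by 1.38 (adjusted p = 0.000357) and 2.01 (adjusted p = 0.000642), Bbc3 fell by 1.27 in Notch3 KO T-ALL (adjusted p = 0.0262), and Bcl2l14 rose by 1.13 in WT T-ALL (adjusted p = 0.0107).

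Markers of other cell types were also called higher in the same comparisons, and their part in the results was not tested. In WT T-ALL all 9 tested erythroid markers were called higher (median 3.61), as were 8 of 9 of megakaryocytes, 4 of 6 of mast cells and basophils, 2 of 4 of eosinophils, 9 of 9 of neutrophils and 8 of 9 of macrophages. In Notch3 KO T-ALL the counts were 9 of 9 (median 5.69), 8 of 9, 0 of 6, 1 of 4, 3 of 9 and 9 of 9. Against all genes (29.3% and 21.2% called higher), the mast cell and eosinophil lists in Notch3 KO T-ALL were below or near the share of all genes. All 10 proliferation markers were higher in WT T-ALL and 8 of 10 in Notch3 KO T-ALL, while 6 and 4 of the 10 T lineage markers were lower.

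**Figure D2:**
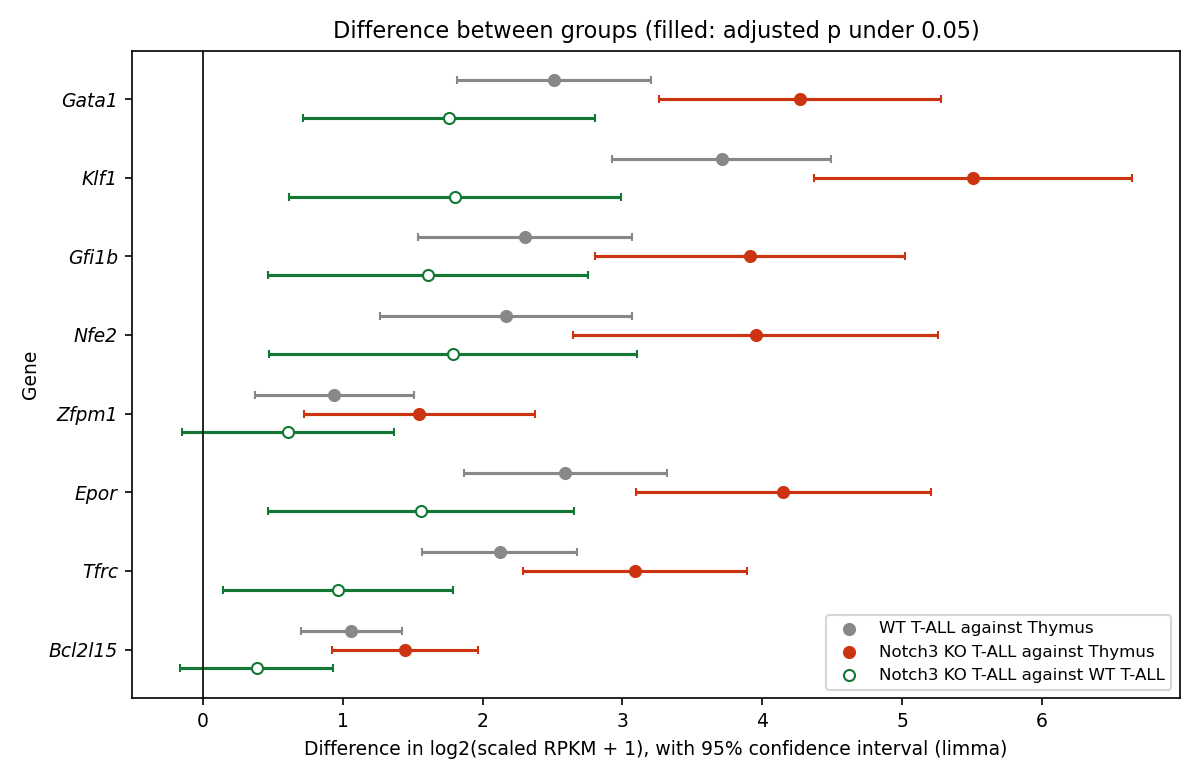
Difference between groups in log2(scaled RPKM + 1) for each gene, with its 95% confidence interval from limma; filled points passed an adjusted p of 0.05. Every interval against thymus lies above 0, and none of the 8 differences between the T-ALL groups was called.

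Whether the donor genotype went with these genes was asked in the 17 tumors alone. All 8 were higher on average in Notch3 KO T-ALL than in WT T-ALL, and none was called, while 0.617% of the 11677 genes tested were (limma, adjusted p under 0.05). At an unadjusted p under 0.05 it was 6 of the 8, against 6.3% of all genes on the higher side. Exact permutation tests put the same 6 of 8 under 0.05, the exceptions being Zfpm1 (p = 0.153) and Bcl2l15 (p = 0.141). They used the same 17 tumors and were run for the 8 genes only. They are thus no separate evidence, and no share of all genes is at hand for them. The difference was 1.76 for Gata1 (95% confidence interval 0.71 to 2.80, limma adjusted p = 0.127), with the exact permutation test at p = 0.00588. For Klf1 it was 1.80 (0.61 to 2.99, adjusted p = 0.182), for Nfe2 1.79 (0.47 to 3.10, adjusted p = 0.267), for Gfi1b 1.61 (0.46 to 2.76, adjusted p = 0.238) and for Epor 1.56 (0.47 to 2.65, adjusted p = 0.221). The Tfrc difference was 0.97 (0.14 to 1.79, adjusted p = 0.41). Zfpm1 differed by 0.61 (-0.15 to 1.36, adjusted p = 0.764) and Bcl2l15 by 0.38 (-0.16 to 0.93, adjusted p = 0.851). Both depend on single libraries, with 0.30 for Zfpm1 without Notch3 KO T-ALL 2 and 0.16 for Bcl2l15 without Notch3 KO T-ALL 3.

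The 3 Notch3 KO T-ALL samples were unlike each other. Sample 1 was the lowest of the 3 for all 8 genes and lay within the range of WT T-ALL for each. For Gata1, Klf1, Gfi1b and Epor, 2 of 3 samples were above all 14 WT T-ALL samples, for Tfrc, Zfpm1 and Bcl2l15 1 of 3, and for Nfe2 0 of 3. The groups overlapped for all 8, and 0.325% of all genes tested did not overlap with Notch3 KO T-ALL higher. In 7 of 8 genes the highest of the 17 tumors was a Notch3 KO T-ALL sample, the exception being Nfe2, which was highest in WT T-ALL 110. Among WT T-ALL, library 108 was the highest for 5 of 8, namely Gata1, Klf1, Epor, Gfi1b and Tfrc. The shares of all genes for which these hold were not counted. Gata1, Klf1, Epor and Gfi1b also went together (r of 0.871 to 0.952 in WT T-ALL), so their places are not independent. Without WT T-ALL 108, Gata1 alone was called (adjusted p = 0.0452).

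Among the tumors with high Sco2, where 3 Notch3 KO T-ALL met 4 WT T-ALL samples, none of the 8 was called either. The differences there were 1.87 for Gata1, 1.96 for Klf1, 1.73 for Gfi1b, 2.46 for Nfe2, 0.38 for Zfpm1, 1.60 for Epor, 1.40 for Tfrc and 0.48 for Bcl2l15. All 3 knockout samples were above these 4 for Gata1, Klf1, Gfi1b, Nfe2 and Tfrc, 2 were for Epor and 1 for Zfpm1 and Bcl2l15. Of 10990 genes tested in these 7 libraries, 6.09% separated with the knockout higher. Erythroid markers moved the same way between the T-ALL groups, with a median difference of 2.05 for the 9 and 0 of 9 called. So did 9 megakaryocyte markers (median 1.28, 0 called), a cell type that also uses Gata1, Gfi1b, Nfe2 and Zfpm1, and 9 macrophage markers (median 1.30, 0 called). Neutrophil markers went the other way on average (median -0.76, 9 of 9 below 0, 0 called), and mast cell and basophil markers had a median of -0.53 (0 of 6 called). The neutrophil marker score was low in Notch3 KO T-ALL 2 alone (3.03). Samples 1 and 3 had 7.32 and 7.43, above the WT T-ALL mean of 6.60. Of the megakaryocyte markers Itga2b, the platelet integrin gene, differed by 1.81 (limma adjusted p = 0.0638). The part of these cells in the members' differences was not tested. With the erythroid marker score as a covariate none of the 8 was called. Only Tfrc changed sign, to -0.13 (limma adjusted p = 0.997), and the sizes of the other 7 differences in that fit are not given here. No gene of the other lists was called between the T-ALL groups.

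Within WT T-ALL the 8 genes did not vary as 1 group from tumor to tumor. Gata1, Klf1, Epor and Gfi1b went together, with Pearson's r between 0.871 and 0.952 over 14 libraries (median 0.912 of 6 pairs). All 4 were highest in library 108 and low in libraries 36, 128 and 202. Library 36 gave 1.98 for Gata1, 2.79 for Klf1, 1.68 for Epor and 1.18 for Gfi1b. Library 128 gave 1.98, 2.06, 1.54 and 1.26, and library 120 at the upper side gave 3.97, 4.94, 3.53 and 3.87. Nfe2 followed Gata1 less closely (r = 0.636) and Epor still less (r = 0.388). Zfpm1 stood apart, with r from -0.349 with Nfe2 to 0.503 with Epor and -0.046 with Tfrc. Tfrc had r of 0.614 with Klf1 and 0.563 with Gata1. These values describe 14 libraries that share their depth and cell mixture from gene to gene.

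**Figure D3:**
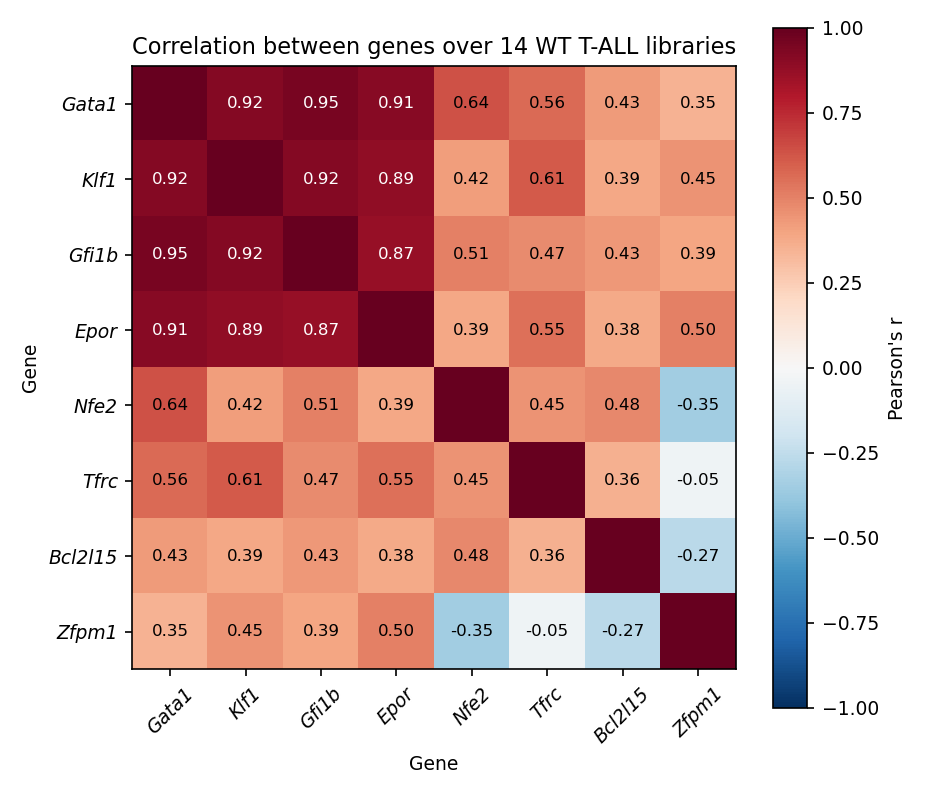
Pearson's r between the levels of each pair of genes over the 14 WT T-ALL libraries; both axes list the genes, and the color gives r from -1 to 1. Gata1, Klf1, Gfi1b and Epor form a block with r of at least 0.871, and Zfpm1 has r below 0 with Nfe2, Tfrc and Bcl2l15.

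For each member, the 3 genes of 11669 others with the highest Pearson's r over the 14 WT T-ALL libraries were listed. Picking the highest among so many genes over 14 libraries gives high r by itself, and these r were not tested. For Klf1 they were Cpox (r = 0.973), an enzyme of heme synthesis, Nxpe4 (0.969) and Nipa1 (0.957). For Epor they were Phyhip (0.961), the red cell antigen gene Ermap (0.960) and Fads3 (0.952). Gata1 was most like Sphk1 (0.976), Daam1 (0.965) and Hpn (0.961), and Gfi1b like Slc26a1 (0.978), Hpn (0.973) and the iron reductase gene Steap3 (0.971). Nfe2 was most like Gna15 (0.965), Irak2 (0.950) and the myeloid and B cell kinase gene Btk (0.950). Among those most like Tfrc were Chac2 (0.865) and Nxpe2 (0.850). Zfpm1 was most like Nf2 (0.900), Stat5a (0.874) and Eif4g1 (0.872), and Bcl2l15 like Mettl9 (0.902), Ropn1l (0.792) and Fam151b (0.774).

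Of the 8 genes Tfrc had the highest Pearson's r with the mature erythroid markers in WT T-ALL, but not the highest Spearman's rho or slope. In the 14 WT T-ALL libraries its level rose by 0.50 per unit of the erythroid marker score (SE 0.11, limma adjusted p = 0.0492), and it was the 1 of 8 that was called, against 0.81% of 11476 genes. Pearson's r was 0.775 (permutation p = 0.00128) and Spearman's rho 0.644 (permutation p = 0.0147). Without libraries 7 and 108, farthest from the median score, r was 0.762, and in the 10 libraries with low Sco2 it was 0.767, where Epor had 0.770. The call is fragile, since leaving out any of 10 of the 14 libraries (3, 4, 5, 14, 48, 108, 110, 120, 128 or 202) lost it. Over the 14 leave-outs the slope stayed between 0.41 and 0.61 and the adjusted p between 0.024 and 0.469. With library set as a term Epor was called in its place (slope 0.92, adjusted p = 0.0484), while Tfrc had a slope of 0.58 (adjusted p = 0.234). Without library 110 it was Nfe2 that was called (slope 0.61, adjusted p = 0.0442), and not Tfrc.

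Slopes of 5 other members were of like size with wider errors. They were 0.59 for Klf1 (adjusted p = 0.392), 0.61 for Nfe2 (0.483), 0.51 for Epor (0.398), 0.48 for Gata1 (0.465) and 0.47 for Gfi1b (0.62), as limma adjusted p-values. Their r with the score was 0.624 for Klf1 (permutation p = 0.017), 0.615 for Epor (0.0203), 0.592 for Gata1 (0.0262), 0.587 for Nfe2 (0.0269) and 0.512 for Gfi1b (0.0621), and Spearman's rho was 0.653 (permutation p = 0.0137), 0.569 (0.0369), 0.508 (0.0669), 0.635 (0.0169) and 0.446 (0.11). Without libraries 7 and 108 these r fell to between 0.396 and 0.499. Zfpm1 had a slope of -0.02 (95% confidence interval -0.35 to 0.31) and r of -0.038 (permutation p = 0.897, rho -0.029, p = 0.928), and Bcl2l15 a slope of 0.15 (-0.08 to 0.37) and r of 0.404 (permutation p = 0.15, rho 0.305, p = 0.286). In library 48 the erythroid marker score of 5.28 was the second of the 14 and Tfrc at 7.61 was too. Of the 4 genes that went together, Gfi1b at 1.94, Epor at 2.38 and Gata1 at 3.00 were below their medians there and Klf1 at 3.92 was above, as was Nfe2 at 3.50. Among the partner and iron genes, Tal1 (slope 0.66, limma adjusted p = 0.0463), Sox6 (0.56, adjusted p = 0.00577) and Abcb10 (0.50, adjusted p = 0.0472) were called. The megakaryocyte marker score had r of 0.598 with Gata1, 0.576 with Nfe2, 0.556 with Tfrc, 0.539 with Klf1, 0.494 with Gfi1b and 0.482 with Epor. Spearman's rho with it was lower, at 0.319, 0.451, 0.301, 0.341, 0.284 and 0.270 in the same order.

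**Figure D4:**
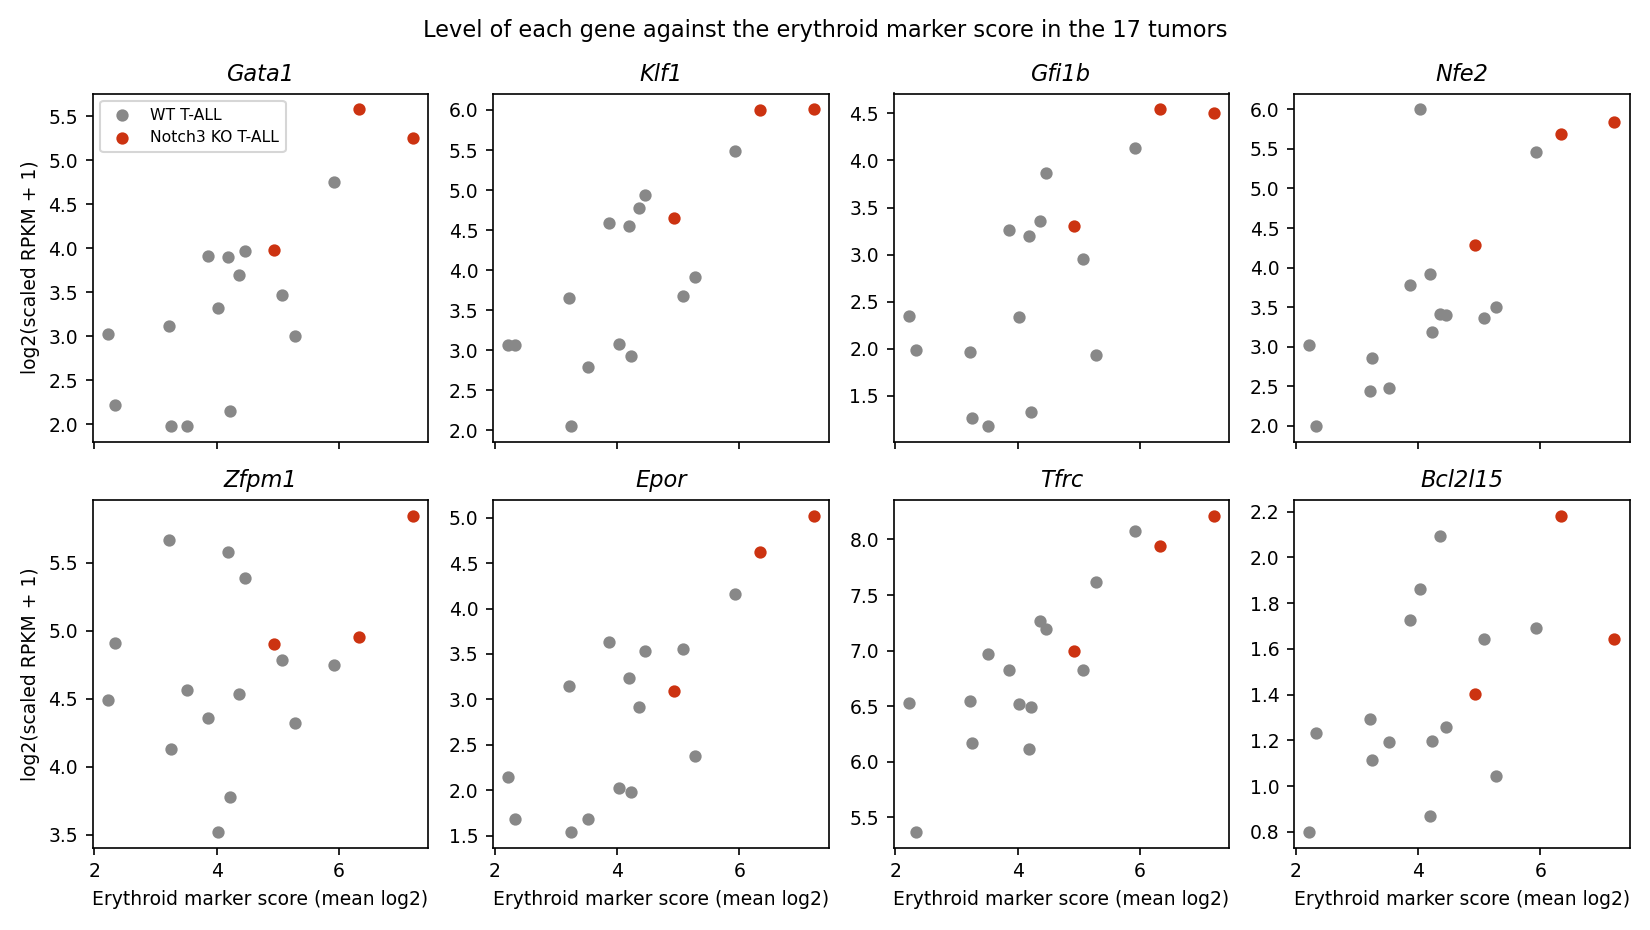
Level of each gene, as log2(scaled RPKM + 1), against the erythroid marker score (mean log2 level of 9 markers) in the 14 WT T-ALL and 3 Notch3 KO T-ALL libraries. Tfrc has the highest Pearson's r with the score in WT T-ALL (0.775, with Klf1 the higher by rank, rho 0.653 against 0.644), Zfpm1 has r of -0.038, and Notch3 KO T-ALL 2 and 3 lie at the upper end of both axes for Gata1, Klf1, Epor, Gfi1b, Nfe2 and Tfrc.

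Tfrc is also known as a gene of dividing cells, so the members were set against a proliferation score of 10 genes such as Mki67 and Top2a. In limma no member was called and none had an unadjusted p under 0.05. Of 11476 genes 0% passed the adjusted threshold and 7.69% the unadjusted one. By rank Bcl2l15 rose with the score (rho 0.613, permutation p = 0.0234), while its r was 0.469 (permutation p = 0.0915). The Tfrc slope was -0.03 with a wide 95% confidence interval of -1.49 to 1.42 (r = -0.013, permutation p = 0.966, rho 0.209, p = 0.474). The score itself ran from 5.86 to 6.62 in these libraries.

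Nfe2 went with myeloid markers in WT T-ALL. Its highest levels were 6.00 in library 110 and 5.46 in library 108, the 2 libraries with the highest neutrophil marker scores (10.97 and 9.03, against a WT T-ALL median of 6.02). In library 110 Klf1 at 3.08 and Epor at 2.02 were below their WT T-ALL medians, Gfi1b at 2.33 was level with its median of 2.34, and Gata1 at 3.33 was above its median of 3.22. Over the 14 libraries Nfe2 had r of 0.896 with the neutrophil score, 0.937 with the mast cell and basophil score and 0.736 with the macrophage score, while Klf1 had 0.154, 0.278 and 0.175 and Gata1 0.383, 0.499 and 0.334. The difference between these r was not tested. Without libraries 108 and 110 the r of Nfe2 with the neutrophil score was 0.658. Notch3 KO T-ALL 2 went the other way, with an Nfe2 level of 5.84 beside a neutrophil score of 3.03, which is within the thymus range of 1.98 to 3.84. The lowest Zfpm1 of all tumors, 3.52, was in library 110 as well.

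**Figure D5:**
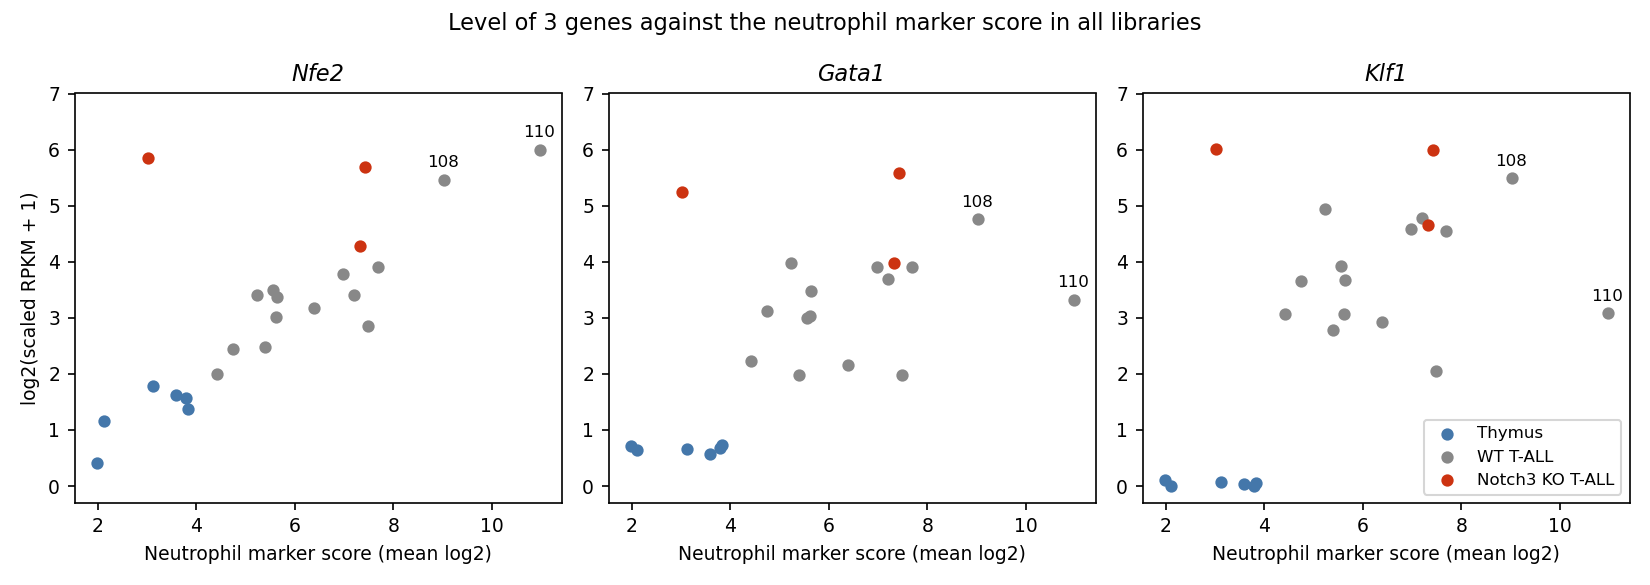
Level of Nfe2, Gata1 and Klf1, as log2(scaled RPKM + 1), against the neutrophil marker score (mean log2 level of 9 markers) in all 23 libraries, with WT T-ALL 108 and 110 labelled. In WT T-ALL Nfe2 has r of 0.896 with the score, with 6.00 in library 110 as its highest level, where Klf1 is 3.08, and Notch3 KO T-ALL 2 has an Nfe2 of 5.84 at a score of 3.03.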

How the data were processed

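Per the labels, stranded mRNA libraries were made from total RNA of 23 samples. The authors aligned reads with OSA, part of ArrayStudio, against mm10 transcripts and deposited 1 table of log2 values, which the values themselves show to be log2(scaled RPKM + 1). Versions are not given in the sources used here. The table holds no counts. A gene was kept where 3 or more of the fitted samples reached a scaled RPKM of 1, and the fits used lmFit and eBayes with trend and robust (limma 3.58.1, R 4.3.3), with Benjamini-Hochberg adjustment over all tested genes and a threshold of 0.05. Comparisons with thymus used all 23 samples in 1 fit, the comparison of T-ALL groups used the 17 tumors, and slopes used the 14 WT T-ALL. Two-sided exact permutation tests enumerated every split of the samples, and the correlations with the erythroid and proliferation scores had 100000 permutations (SciPy 1.17.1). The fits were tested on simulated data.

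The 8 genes and the gene lists were chosen with earlier results of these data known. Lists covered erythroid, megakaryocyte, mast cell and basophil, eosinophil, neutrophil, macrophage, T lineage and proliferation markers, partners of the erythroid factors, erythropoietin signaling, iron handling and Bcl2 relatives, and a marker score is the mean log2 level of its list. From each of the last 4 lists the 3 genes with the largest called change were named. Ahsp of the erythroid list was not analysed here. One of the genes most like Tfrc is not reported here. Sets by Sco2 were made after seeing the data. Reads per value were recovered from whole steps in low values, within 0.1 of a whole read. Nothing says that samples came from separate litters or days, so p-values measure the spread between these samples. Positions and upstream sequences are from RefSeq on GRCm38.p6, which shares its coordinates with mm10, and 7 of 8 genes had an upstream entry. A spreadsheet had turned 27 symbols into dates, which were restored by gene identifier.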

Additional observations from a re-analysis of the deposited data

How the results depend on the processing

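All 8 genes were called higher than thymus in both tumor groups with an offset of 0.1, no filter, quantile normalization, eBayes without trend and robust, and any 1 library left out. With a filter at a scaled RPKM of 5 Bcl2l15 was not tested and 7 of 7 were called. Taking the erythroid score as a covariate left 0 of 8 in either comparison (all genes 903 and 82, and Nfe2 at -0.30 in WT T-ALL). Within the high Sco2 set, chosen after seeing the data, 1709 and 2825 of all genes were called against thymus. All genes called in leave-one-out ranged from 5431 to 6313 for WT T-ALL and from 2859 to 4714 for Notch3 KO T-ALL. Between the T-ALL groups, where 72 of all genes were called, the count was 39 with an offset of 0.1, 134 with no filter, 6 with a filter at 5, 10 with the erythroid covariate (Tfrc at -0.13), 254 with all 3 groups in 1 fit, 13 within the high Sco2 set, 159 with library set as a term, and 3 to 205 in leave-one-out. Members called there were 1 with all 3 groups in 1 fit (Gata1, adjusted p = 0.0335) and 0 to 1 in leave-one-out.

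The Tfrc slope on the erythroid score was not called without the filter, without trend and robust, or with the proliferation or the neutrophil score as a covariate (members called 0 in each). Its size stayed at 0.4987, 0.4987, 0.4988 and 0.5205 in that order, beside 0.4987 in the main fit. The limma adjusted p-values were 0.1, 0.0568, 0.0688 and 0.09. Members called ranged from 0 to 1 in leave-one-out (Nfe2 in place of Tfrc without library 110). All genes called were 37 with library set as a term and 30 to 108 in leave-one-out. The Zfpm1 slope turned to 0.10 with the neutrophil covariate and 0.14 with library set as a term, and ran from -0.0557 to 0.0408 in leave-one-out. On the proliferation score, 1 gene was called with library set as a term, and leave-one-out gave 0 to 0. The Tfrc slope there turned to 0.0196 with the erythroid covariate and 0.35 with library set as a term, and ran from -0.54 to 0.42 in leave-one-out, and that of Gata1 from -0.26 to 0.87. With quantile normalization, chosen for the levels after seeing the data, the mean thymus level went from 0.67 to 0.84 for Gata1, from 0.10 to 0.15 for Epor and from 0.30 to 0.42 for Bcl2l15. The causes were not tested.

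The label numbers do not pair the samples. Deviations of same-numbered samples correlated between -0.235 and 0.131 for thymus and WT T-ALL and between -0.028 and 0.151 for thymus and Notch3 KO T-ALL. With the replicate block 7 of 8 genes and 1850 of all genes were called in WT T-ALL (Nfe2 at 1.22, adjusted p = 0.0576), and 8 of 8 and 3651 in Notch3 KO T-ALL. The T-ALL groups share 1 number, which allows no block. An offset of 1 is the reported setting and was not run again.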
